A study of Sus scrofa with 30 samples.

Results

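Broad H3K27me3 domains of pig metaphase II (MII) oocytes are stretches of at least 5 kb called as a single H3K27me3 peak in the first MII oocyte library, on chromosomes 1 to 18, with at least 50% of their length covered by peaks of the second MII library. Of 48261 peaks of the first library, 2326 were that wide and 2126 of these were kept. They held 20.01 Mb, which is 0.883% of the 18 chromosomes and 29.0% of the length covered in that library. The domains were thus chosen by the width and overlap of their H3K27me3 peaks in MII oocytes, so their values there are given only as a description, and no test below uses them.

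H3K27me3 is the trimethyl mark that the Polycomb repressive complex PRC2 places on histone H3 at silenced genes, often over developmental regulators. H3K4me3 marks active and poised promoters, and in mammalian oocytes it also spreads into broad domains far from promoters. KDM5B and KDM5C are demethylases that remove H3K4me3.

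Both marks were profiled by native chromatin immunoprecipitation from very few cells (ULI-NChIP) in Sus scrofa oocytes and in embryos fertilised in vitro, and each of the 30 libraries came with its own list of broad peaks. H3K4me3 was followed in germinal vesicle (GV) oocytes, MII oocytes, 1-cell, 2-cell, 4-cell and 8-cell embryos, morulae and blastocysts, and H3K27me3 in MII oocytes, 2-cell, 4-cell and 8-cell embryos, morulae and blastocysts, with 2 libraries in each group. In the remaining H3K4me3 group of the 15, siKDM5BC, also with 2 libraries, zygotes had been injected with siRNA against KDM5B and KDM5C and were collected as 4-cell embryos. No control siRNA group is labelled, so the untreated 4-cell libraries were the reference. The sample numbers of the siKDM5BC pair do not run on from those of the other libraries. The knockdown, the injection itself and any difference of collection or library batch therefore cannot be told apart. Transcripts were not measured, so the knockdown was not checked here. Breed and the number of oocytes or embryos per library are not given in the labels, which also name no batch and do not say whether replicates were separate collections; p-values then measure only the spread between these libraries. A library pools the cells and both parental genomes, so a weaker mark everywhere and a loss from some cells or from 1 parental genome cannot be told apart.

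The value followed is the covered share, the percentage of a domain's length lying under peaks of a library, with coordinates in susScr11. The lists hold no read totals, so depth is unknown; the background per position implied by the caller's own fold and p columns served as a guide. It was 0.957 and 1.36 reads in the H3K4me3 libraries of MII oocytes, 1.25 and 1.12 at the 4-cell stage, 1.22 and 1.10 in siKDM5BC and 1.43 and 1.42 in blastocysts. For H3K27me3 it was 0.977 and 0.626 in MII oocytes, 1.11 and 0.796 in 2-cell embryos, 0.170 and 0.182 in morulae and 0.397 and 0.456 in blastocysts. The H3K4me3 library of 1-cell replicate 1 stood apart. Its guide was 2.25, and its peaks covered 7.78% of the domains against 40.7% in 1-cell replicate 2, while over all 5-kb tiles of the 18 chromosomes the shares were 3.03% and 6.12%.

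The domains were 5000 to 70474 bp wide with a median of 7522 bp, and 592 reached 10 kb and 99 reached 20 kb. The authors' fold enrichment over these peaks had a median of 4.37, against 3.32 for the narrower peaks of the same list. The second MII library covered a median of 82.5% of a domain. At the width limit, the 3 narrowest domains measured 5000, 5001 and 5002 bp and the 3 widest peaks left out measured 4997, 4998 and 4999 bp. At the overlap limit, the 3 domains least covered by the second library had 50.01%, 50.01% and 50.1%, and the 3 peaks just below it had 49.8%, 49.9% and 49.9%.

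Position was not used by the rule, and the domains lay mostly near chromosome ends. Within 5 Mb of an end lay 1467 domains, 69.0% of them, against 7.94% of all 5-kb tiles. Regions like them also lay there more often than tiles. The share was 33.6% for MII H3K27me3 peaks under 5 kb kept by the same overlap rule. It was 36.1% for broad H3K4me3 domains of GV oocytes. The last 2 Mb of the chromosome arms held 842 domains, and 12.9% of that sequence was inside a domain. The ends differed from each other: the high-coordinate end of chromosome 14 held 105 domains in its last 5 Mb, the low end of chromosome 2 and the high end of chromosome 16 held 102 each, and the low ends of chromosomes 10, 13, 16 and 17 and the high end of chromosome 5 held 0. All 80 domains of chromosome 11 lay within 5 Mb of an end, whereas on chromosome 6 only 76 of 245 did.

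**Figure D1:**
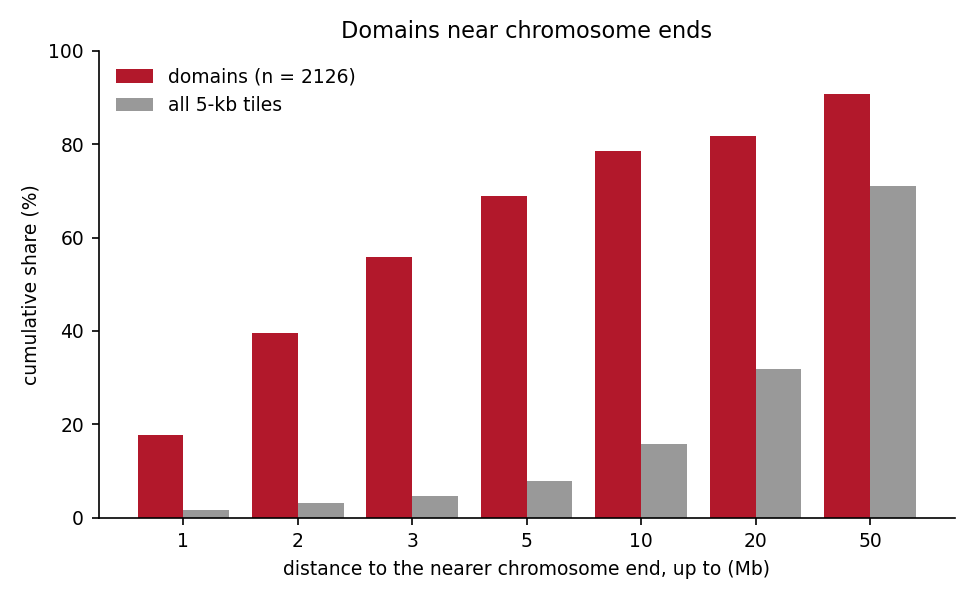
Cumulative share of the 2126 domains (red) and of all 5-kb tiles of chromosomes 1 to 18 (grey) by distance in Mb to the nearer chromosome end. Up to 5 Mb from an end the bars stand at 69.0% for domains and 7.94% for tiles.

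The domains came in runs. The median gap between neighbours was 16.0 kb, and with gaps under 50 kb joined, 47 runs of 10 or more domains held 929 domains, 45 of these runs within 5 Mb of an end. The largest run, 74 domains from 77715256 to 79431675 on chromosome 16, spans the Iroquois homeobox genes IRX2 and IRX4, the telomerase gene TERT and the transporter genes SLC6A3 and SLC12A7. Inside it 47.8% of the sequence belonged to domains. Of the other 2 runs, 1 lay 64.7 Mb from the nearer end, on chromosome 6 (64259807 to 65067874), with 39 domains from RER1 to MEGF6 across PRDM16 and HES5.

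Gene ends lay at a minority of domains. A domain met the 1 kb on either side of a coding gene's start or end, which the annotation without strand does not tell apart, in 436 cases, 20.51%, against 9.21% of tiles. Another 776 lay inside a gene body without reaching an end, and 914 lay outside coding genes. Domains are wider than a 5-kb tile, which by itself raises the chance of meeting a gene end, and that part was not separated.

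Among the widest domains, positions 2 to 4 went to a 60975-bp domain in the fibrillar collagen gene COL5A1 (chromosome 1, 273978797 to 274039771), 53530 bp over CROCC2 and SNED1 (chromosome 15, 139790847 to 139844376) and 52320 bp in PRDM16, a zinc finger factor of the brown fat programme (chromosome 6, 64702742 to 64755061). H3K4me3 covered 87.5% and 80.3% of the COL5A1 domain in siKDM5BC against 24.3% and 3.90% in untreated 4-cell embryos. The CROCC2 domain had 95.7% and 99.9% against 27.3% and 19.7%, and the PRDM16 domain 98.2% and 98.2% against 40.8% and 20.04%. Blastocyst H3K27me3 covered 18.8% and 24.9% of the COL5A1 domain, 43.9% and 51.3% of the CROCC2 domain and 16.2% and 32.2% of the PRDM16 domain. All 3 had higher H3K4me3 shares in both siKDM5BC than in both 4-cell libraries, and the blastocyst H3K27me3 shares of the COL5A1 domain lay within those of the PRDM16 domain.

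Positions 5 to 10 by width went to SLC12A7 and NKD2 (52167 bp; NKD2 is a WNT pathway inhibitor), a domain 126997 bp from the neural factor gene SOX1 (51202 bp), MYT1L and PXDN (50876 bp), a second PRDM16 domain (49379 bp), the histone deacetylase gene HDAC4 (49092 bp) and the inositol phosphatase gene INPP5A (45597 bp). The SLC12A7 and NKD2 domain was covered 100% and 100% by siKDM5BC H3K4me3 and only 5.52% and 2.08% by blastocyst H3K27me3, the lowest of these 9 at that stage. The second PRDM16 domain had 49.7% and 64.6%, the highest mean of the 2 libraries among them.

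Among peaks as called, H3K4me3 was present over much of the same length in oocytes and early embryos and was at low shares by the morula. It covered 39.8% and 43.5% of the domains' length in GV oocytes, 35.6% and 55.4% in MII oocytes, 43.6% and 30.6% in 2-cell, 22.5% and 10.6% in 4-cell and 8.55% and 14.5% in 8-cell embryos. In morulae it covered 6.04% and 7.39% and in blastocysts 9.91% and 10.1%. Over all tiles the shares were 4.46% and 3.12% in GV oocytes, 2.69% and 4.30% in MII oocytes, 2.45% and 1.37% in 4-cell embryos, 5.34% and 5.93% in morulae and 4.96% and 5.11% in blastocysts. The domains therefore held 13.0 times the H3K4me3 share of the tiles in MII oocytes, 8.67 times in 4-cell embryos and 1.19 times in morulae, from the means of 2 libraries. With −log10 q of 2 or more the domains' shares were 10.9% and 30.3% in GV oocytes, 1.51% and 17.1% in MII oocytes, 8.78% and 8.51% in 2-cell and 14.4% and 6.48% in 4-cell embryos, 5.64% and 6.35% in morulae and 9.07% and 9.40% in blastocysts. In those peaks the MII libraries overlapped every later stage listed. The domains' ratios to the tiles in those peaks were 17.4 in MII oocytes, 7.01 in 2-cell and 7.47 in 4-cell embryos and 1.23 in morulae. As called, both MII libraries covered at least 50% of 337 domains, 15.9%, where 0.399% of tiles met the same limit. For GV oocytes it was 408 domains against 0.703% of tiles, for 4-cell embryos 51 against 0.186% and for blastocysts 90 against 2.37%.

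**Figure D2:**
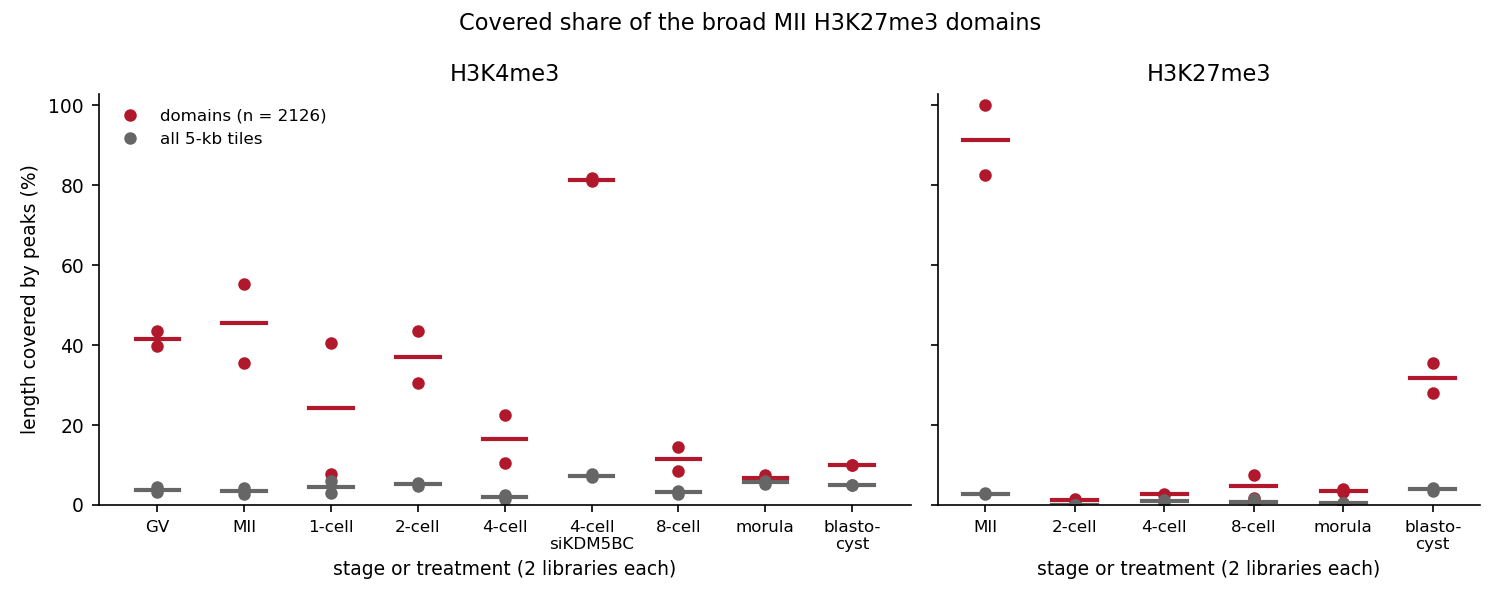
Percentage of the summed length of the 2126 domains (red) and of all 5-kb tiles (grey) under H3K4me3 peaks (left) and H3K27me3 peaks (right); points are the 2 libraries of each group and bars their mean. H3K4me3 reached 81.8% and 81.0% in siKDM5BC, and H3K27me3 stayed below 8% from the 2-cell stage to the morula.

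The siKDM5BC comparison sets embryos given siRNA to KDM5B and KDM5C, enzymes known to remove H3K4 methylation, beside untreated embryos of the 4-cell stage. H3K4me3 covered 81.8% and 81.0% of the domains' length in siKDM5BC embryos and 22.5% and 10.6% in untreated 4-cell embryos. The 2 siKDM5BC libraries differed by less than 1 percentage point, and the groups did not overlap. Over all tiles the shares were 7.67% and 7.03% in siKDM5BC, against 2.45% and 1.37% at the 4-cell stage. No test was made of the domains against the genome as a whole, because the domains were chosen with these results known.

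Fitted over all 195333 features (limma, BH 0.05), 1678 of 2126 domains were higher in siKDM5BC, 78.9% against 13.2% of all features, and 4 were lower, against 0.16% of all features. The median difference over the domains was 68.4 percentage points. Both siKDM5BC shares lay above both 4-cell shares in 2037 domains, 95.8%, against 14.9% of tiles. The count of higher domains was 899 without 4-cell replicate 2 and 890 with peaks under 3 kb apart joined. The lowest fold in a list shows how weak a peak could still be called. It was 2.70 and 2.86 in siKDM5BC and 3.11 and 3.31 in 4-cell lists. With only peaks of fold 3.5 or more the count of higher domains was 1308, beside 11837 of all 94196 features. With −log10 q of 2 or more it was 1699, beside 21884 of all 112611 features.

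**Figure D3:**
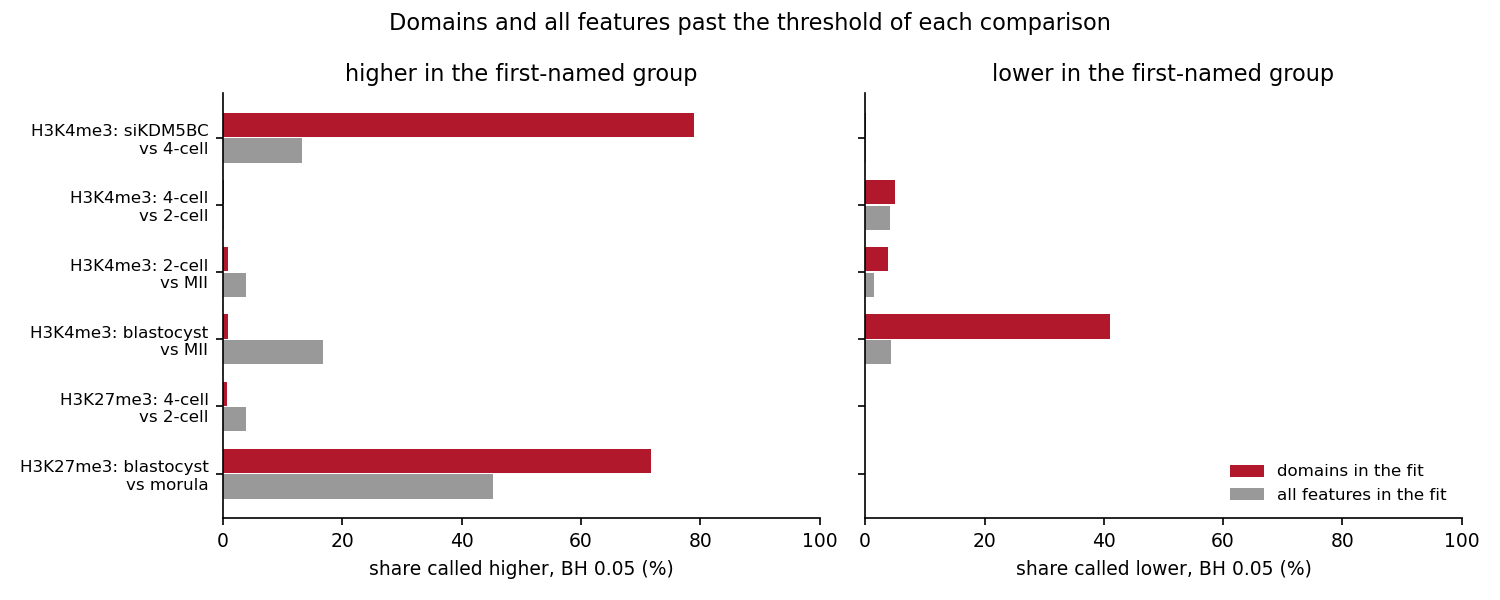
Percentage of the domains in the fit (red) and of all features in the fit (grey) called higher (left) or lower (right) in the first-named group of each comparison, by limma at BH 0.05. Domains stand far above all features for siKDM5BC gains (78.9% against 13.2%) and for losses from MII oocyte to blastocyst (41.0% against 4.38%).

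The siKDM5BC peaks were wide. A single peak spanned at least 90% of 854 and 791 domains in the 2 libraries, against 26 and 12 in the 4-cell and 14 and 55 in the MII libraries. Wider domains were more fully covered: siKDM5BC shares were 74.3% and 73.7% in domains of 5 to 7.5 kb and 92.8% and 92.3% in those of 20 kb or more. At the 4-cell stage the narrower class had 20.3% and 10.5%, and the widest 28.2% and 13.6%.

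The coverage did not end at the domain edges. At 0.5 kb inside an edge, siKDM5BC H3K4me3 covered 73.0% and 73.0% of positions, at 5.5 kb outside 59.1% and 59.0% and at 49.5 kb outside 51.1% and 50.2%. MII H3K4me3 covered 31.2% and 49.4% at the inner distance, against 18.99% and 30.1% at 49.5 kb outside, and MII H3K27me3, apart from the edges that define the domains, still covered 41.3% and 36.7% at 49.5 kb outside. Neighbouring domains lie inside these flanks, since the median gap was 16.0 kb.

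**Figure D4:**
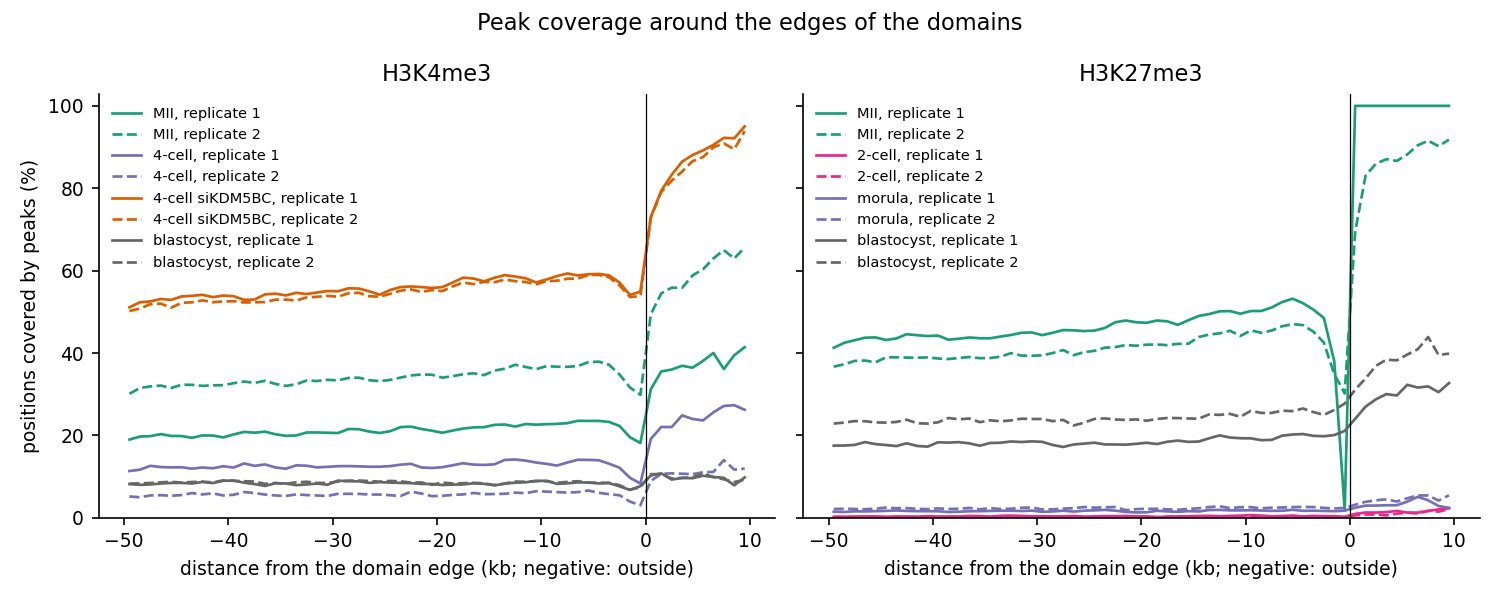
Percentage of positions under peaks by distance in kb from the domain edges (negative values lie outside), for H3K4me3 (left) and H3K27me3 (right); solid and dashed lines are replicates 1 and 2. Flanks 49.5 kb away were covered 51.1% and 50.2% by siKDM5BC H3K4me3 and 41.3% and 36.7% by MII H3K27me3.

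The largest increases went from no covered base to the whole domain. A 7759-bp domain 593048 bp from the homeobox gene IRX1 (chromosome 16, 77094897 to 77102655) had 0% in both 4-cell libraries and 100% in both siKDM5BC libraries (SE 19.4 points, BH-adjusted p = 0.00597). It had 25.9% and 83.6% in MII oocytes. The same values of 0% and 100% were found in domains lying 33256 bp from the forkhead factor gene FOXF2 (chromosome 7, 753038 to 759283; BH-adjusted p = 0.00235), 36639 bp from TMEM18 (chromosome 3, 132468322 to 132474381; BH-adjusted p = 0.0118), 32052 bp from the imprinted growth factor gene IGF2 (chromosome 2, 1431093 to 1437130; BH-adjusted p = 0.000258) and 74484 bp from the chemokine receptor gene ACKR3 (chromosome 15, 136457044 to 136462624; BH-adjusted p = 0.0127). These 5 domains had H3K4me3 in both MII libraries, with 17.8% and 22.6% for the ACKR3 domain and 62.1% and 68.5% for the IGF2 domain, and no covered base in either untreated 4-cell library.

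In siKDM5BC 4 domains were lower, 0.188% against 0.16% of all features. This share is near that of all features and is not a result about the domains. A domain with MROH9 as the nearest named coding gene, 220972 bp away (chromosome 9, 63387140 to 63399255), had 63.1% and 28.3% in 4-cell embryos and 0% in both siKDM5BC libraries, a difference of -45.7 percentage points (SE 10.5, BH-adjusted p = 0.014). It was also at 0% in both 2-cell libraries and at 100% in both blastocyst libraries. The other 3 lay 89901 bp from STAM2 (chromosome 15, 20128 to 25395), 70810 bp from EGFLAM (chromosome 16, 23677045 to 23684139) and 52113 bp from KIAA1549L (chromosome 2, 27418955 to 27424200). The EGFLAM and KIAA1549L domains were at least 50% covered in all 30 libraries of both marks, and the STAM2 domain was lowest at 46.2%. The EGFLAM domain, for example, went from 99.4% and 99.7% to 72.4% and 70.5% (BH-adjusted p = 0.00518).

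The 4 H3K4me3 comparisons share libraries, with the 4-cell pair entering the siKDM5BC and 2-cell comparisons and the MII pair 2 others, so no overlap of their calls is given. Between the 2-cell and 4-cell stages, around major genome activation in pig embryos, H3K4me3 over the domains was lower at the second stage: 43.6% and 30.6% in 2-cell and 22.5% and 10.6% in 4-cell libraries, with no overlap of the groups. Tiles were lower too, with 5.58% and 4.69% in 2-cell and 2.45% and 1.37% in 4-cell libraries, also without overlap. The domains held 7.23 times the share of the tiles at the 2-cell and 8.67 times at the 4-cell stage, from the means of 2 libraries. In the fit 108 domains were lower and 2 higher, 5.08% and 0.0941% against 4.21% and 0.165% of all features. A share this near that of all features is not a result about the domains. The count of lower domains was 320 without 1-cell replicate 1, 27 and 15 without 4-cell replicates 1 and 2, 58 and 170 without 2-cell replicates 1 and 2, and 11 with −log10 q of 2 or more, where 11 were higher. With only these 2 groups in the fit no domain passed in either direction (limma; 584 lower and 15 higher at an unadjusted p under 0.05), so the calls named next rest on the fit of all 18 libraries.

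The largest decrease was in a domain 4043 bp from the lens crystallin gene CRYAA (chromosome 13, 206301094 to 206311401), from 100% and 72.7% to 7.14% and 0%, a difference of -82.8 percentage points (SE 15.7, BH-adjusted p = 0.0131). A domain 92325 bp from the thrombomodulin gene THBD (chromosome 17, 30121369 to 30127544) went from 88.5% and 76.6% to 3.64% and 0% (-80.7 points, SE 17.2, BH-adjusted p = 0.023). In siKDM5BC the CRYAA domain had 90.3% and 100%, and the THBD domain 100% and 36.01%. Other decreases lay in CIB4, which encodes a calcium-binding protein, in the neuron navigator gene NAV1 and in the LIM protein gene CSRP1, and these genes' domains passed as well. CIB4 had 78.5% and 77.5% in 2-cell against 0% and 0% in 4-cell libraries, NAV1 89.7% and 73.0% against 10.8% and 0%, and CSRP1 86.7% and 66.7% against 3.62% and 0%. The 2 increases were the MROH9 domain and a 22638-bp domain 36396 bp from OSBPL8 (chromosome 5, 39781052 to 39803689), which had 17.7% and 29.8% at the 2-cell and 97.5% and 62.5% at the 4-cell stage (BH-adjusted p = 0.0241).

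From MII oocyte to 2-cell embryo the summed share changed from 35.6% and 55.4% to 43.6% and 30.6%, and the libraries of the 2 groups overlapped. In the fit 80 domains were lower and 16 higher in 2-cell embryos, 3.76% and 0.753% against 1.51% and 3.91% of all features. Among the decreases were the glycine transporter gene SLC6A9 (chromosome 6, 167283378 to 167288429), from 72.0% and 79.9% to 0% and 5.07% (-73.4 points, SE 13.5, BH-adjusted p = 0.00933), and the water channel gene AQP1 (chromosome 18, 42071273 to 42076996), from 80.0% and 67.1% to 12.4% and 0% (BH-adjusted p = 0.00331). Among the increases, the domain near THBD went from 14.4% and 16.6% to 88.5% and 76.6% (BH-adjusted p = 0.0458) and the one at the homeobox gene ONECUT3 (chromosome 2, 76769265 to 76774603) from 40.4% and 47.9% to 100% in both libraries (BH-adjusted p = 0.0125). With −log10 q of 2 or more, 0 domains were lower and 15 higher of 2068 fitted, beside 36 lower and 784 higher of all 112611 features. The share of higher domains was near that of all features and is not a result about the domains. With only these 2 groups in the fit none passed in either direction. Without 1-cell replicate 1 the fit called 140 lower and 44 higher. The count of lower domains was 143 without MII replicate 1, 26 without MII replicate 2 and 37 without 2-cell replicate 2, and the count of higher domains was 5 without MII replicate 1 and 7 without 2-cell replicate 1.

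In blastocysts H3K4me3 covered 9.91% and 10.1% of the domains' length, against 35.6% and 55.4% in MII oocytes, while over all tiles the shares were 4.96% and 5.11% in blastocysts, against 2.69% and 4.30% in MII oocytes. The groups did not overlap on either measure, and they stood in opposite order on the 2. In the fit 871 domains were lower and 19 higher, 41.0% and 0.894% against 4.38% and 16.7% of all features, with a median difference of -35.9 points over the domains.

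The strength of the peaks kept bore on these calls. When −log10 q had to reach 2, H3K4me3 covered 1.51% and 17.1% in MII oocytes (mean 9.32%) and a mean of 9.24% in blastocysts. More domains were then called higher than lower: 11 lower and 132 higher of 2068 fitted. Of all 112611 features fitted so, 124 were lower and 39037 higher. The share called higher was thus smaller among the domains than among all features. With fold 3.5 or more the direction held, and the fit called 147 lower and 68 higher of 2057 fitted. Of all 94196 features fitted so, 1366 were lower and 28214 higher. The median −log10 q of the peaks inside the domains was 1.33 and 1.79 in MII and 3.07 and 3.33 in blastocyst libraries. The count of lower domains was 292 without MII replicate 2, and 337 and 331 without either blastocyst library.

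As called, the largest decreases were in TCERG1L (chromosome 14, 139859313 to 139865119), from 96.6% and 85.0% to 0% (-90.8 points, SE 17.97, BH-adjusted p = 0.00323), in the receptor phosphatase gene PTPRF (chromosome 6, 167668403 to 167675899), from 100% and 70.4% to 0% (BH-adjusted p = 0.0124), and in RPTOR, which encodes the mTORC1 subunit Raptor (chromosome 12, 1749191 to 1756769), from 70.1% and 100% to 0% (BH-adjusted p = 0.000811). In siKDM5BC the TCERG1L domain had 99.2% and 98.0%, and the PTPRF and RPTOR domains 100% in both libraries. Increases included the MROH9 domain, the giant scaffold protein gene AHNAK (chromosome 2, 9195552 to 9200723), from 17.0% and 21.5% to 100% in both libraries (BH-adjusted p = 0.00225), and the epidermal growth factor receptor gene EGFR (chromosome 9, 139336868 to 139347092), from 18.7% and 40.6% to 90.6% and 89.8% (BH-adjusted p = 0.0147).

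H3K27me3 was nearly missing from the domains after fertilisation. Of the length covered 100% and 82.6% in the MII libraries that chose it, peaks covered 1.41% and 0.948% in 2-cell embryos, 2.496% and 2.82% in 4-cell, 1.83% and 7.53% in 8-cell embryos and 3.14% and 4.07% in morulae. Over all tiles the MII shares were 3.04% and 2.64%, the 2-cell shares 0.0872% and 0.0553%, the 4-cell shares 0.766% and 1.20%, the 8-cell shares 0.243% and 1.46% and the morula shares 0.455% and 0.571%. The 2-cell lists as a whole were short, with 3108 and 2312 peaks against 48261 and 51680 in MII oocytes. The domains still held 16.6 times the 2-cell share of the tiles, from the means of 2 libraries. In 2040 domains under 10% was covered in both 2-cell libraries, 96.0%, where 99.6% of tiles met the limit, and 1871 domains had no covered base in either. The domains were chosen for high MII values, so part of any drop from MII is fixed by the choice, and the drop is given without a test.

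The depth guides of the 2-cell H3K27me3 libraries (1.11 and 0.796) and of the MII libraries (0.977 and 0.626) overlapped. That of the morula libraries (0.170 and 0.182) was the lowest of all groups. The lowest fold in a list was 3.80 and 3.90 in 2-cell and 3.03 and 3.08 in MII libraries. The domains' own peaks in the first MII library had a median fold of 4.37. The part of depth and of the lowest fold called in the shares at the later stages was not tested.

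A small number of domains had H3K27me3 at all stages. At least 50% was covered in both libraries in 9 domains at the 2-cell stage, 12 at the 4-cell, 14 at the 8-cell and 21 at the morula stage, against 0.00552%, 0.0369%, 0.0274% and 0.0638% of tiles, and 8 met that limit at all 5 later stages. Of these, 6 were at least 50% covered in all 30 libraries, by H3K4me3 and H3K27me3 alike. They were 2 domains in EEA1 (chromosome 5, 90227548 to 90235535 and 90244225 to 90249276), which encodes an early endosome protein, 1 in SUSD4 (chromosome 10, 19414720 to 19457527), 1 at LOC102162336 beside CYB5R1 (chromosome 10, 24932426 to 24962294), 1 near KIAA1549L and 1 near EGFLAM. The 42808-bp SUSD4 domain, for example, had 2-cell H3K27me3 over 99.1% and 99.0% and 2-cell H3K4me3 over 99.9% and 96.6% of its length. Whether these 6 regions gather reads that map to several places was not tested, and without them the domains' 2-cell H3K27me3 share was 0.701% in place of 1.18% (means of 2 libraries).

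The fit of later H3K27me3 libraries kept 1780 of the 2126 domains, those with a covered base in at least 2 of the 10 libraries. Of all domains, 700 had no covered base in the 8 libraries before the blastocyst, so any of them in the fit passed through blastocyst signal alone, and the 1780 are not all the domains. From the 2-cell to the 4-cell stage 13 domains rose, 0.730% of those fitted against 3.85% of all features, and 0 fell, against 0.0241% of all features (limma, with 1 domain lower at an unadjusted p under 0.05). Among the 13, the domain near MROH9 had 6.73% and 0% in 2-cell and 91.1% and 100% in 4-cell libraries (BH-adjusted p = 0.00512), a domain 209338 bp from ALG10 (chromosome 5, 40201662 to 40206996) had 0% in both and 100% and 90.2% (BH-adjusted p = 0.00593), and the domain near OSBPL8 had 11.3% and 9.51% against 67.9% and 84.7% (BH-adjusted p = 0.0182). Without 2-cell replicate 1 or without replicate 2 the count was 0, and it was 0 as well (limma, 39 at an unadjusted p under 0.05) when features were admitted on the 8 libraries outside the 4-cell stage. Of all features fitted so, 0.112% were higher and 0.0067% lower, and 0 domains fell (limma, 1 at an unadjusted p under 0.05).

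Between morula and blastocyst H3K27me3 returned to part of the domains. Blastocyst peaks covered 28.0% and 35.6% of their length and morula peaks 3.14% and 4.07%, with no overlap of the groups, while over all tiles the shares were 3.43% and 4.33% in blastocysts, against 0.455% and 0.571% in morulae. In the fit 1277 domains rose, 71.7% of the 1780 fitted and 60.1% of all 2126, against 45.2% of all features, and 0 fell, against 0.047% of all features (0 also at an unadjusted p under 0.05; limma). Features covered in fewer than 2 libraries before the blastocyst entered this fit through blastocyst signal, so neither share is read as a result. With features admitted on the 8 earlier libraries alone (a covered base in at least 2 of them, chosen after seeing the data), 898 domains were fitted, 531 rose, 59.1% against 18.8% of all features fitted so, and 0 fell, against 0.0523% of them (limma, 0 at an unadjusted p under 0.05). In the fit of all 10 libraries with −log10 q of 2 or more, 635 domains were fitted and 343 rose, beside 8046 of all 17375 features. There 3 domains fell, beside 144 of all features. Blastocyst libraries also counted in the filter of that fit, so these counts are not read as a result. Morula lists also had the lower depth guide, 0.170 and 0.182 against 0.397 and 0.456, and its part in the rise was not tested.

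The largest differences were in a pair of neighbouring domains 86675 and 80045 bp from the zinc finger gene HIVEP3 (chromosome 6, 169507475 to 169512751, and 169513831 to 169519381). The first had 0% in both morula and 100% in both blastocyst libraries, and the second 3.62% and 0% against 97.6% and 100%. A domain 446014 bp from CD46, a complement regulator gene (chromosome 9, 135524925 to 135530401), had 7.34% and 0% against 100% in both, and 1 lying 9386 bp from IGF2 (chromosome 2, 1453212 to 1459796) had 0% in both against 95.03% and 86.6%. These 4 had a covered base in fewer than 2 libraries before the blastocyst and entered the fit through blastocyst signal, so their values are given without a test. A domain 19835 bp from RRM2, which encodes a ribonucleotide reductase subunit (chromosome 3, 126331358 to 126337362), passed on the earlier libraries too and rose from 0% and 5.65% to 99.1% and 99.1% (BH-adjusted p = 0.000381, and 0.000995 with the filter on earlier libraries).

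Return was uneven. Both blastocyst libraries covered at least 50% of 354 domains, 16.7% against 1.34% of tiles, and under 10% of 474, 22.3% against 86.1% of tiles. The 354 became 135 with −log10 q of 2 or more, 146 with fold of 3.5 or more and 703 with peaks under 3 kb apart joined. Of the 354, 329 were covered at no earlier stage after MII, and 145 domains had no covered base in any of the 10 later libraries. The covered class had a median width of 7941 bp and the empty class of 6893 bp. The widest covered domains lay near SOX1 (50.2% and 53.0%), at MYT1L and PXDN (54.5% and 50.5%), in SUSD4, and in RPS6KA2, a ribosomal S6 kinase gene (63.4% and 78.4%). The widest empty ones lay over SLC12A7 and NKD2 (5.52% and 2.08%), TSPAN32 (5.90% and 5.87%), the phospholipase gene PLCH2 (6.44% and 5.29%), the immune factor gene NFATC1 (3.91% and 1.58%) and the retinoid receptor gene RXRA (0% and 0%).

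Both classes had H3K4me3 in MII oocytes and in siKDM5BC. MII H3K4me3 covered 38.1% and 60.0% of the covered class and 35.1% and 54.1% of the empty class, and siKDM5BC H3K4me3 covered 87.4% and 86.3% of the first class, against 76.9% and 75.7% of the second. Within 5 Mb of chromosome ends 18.1% of domains were covered in both blastocyst libraries and 13.4% farther away. The siKDM5BC gap by position was wider: 89.7% of domains near ends were at least 50% covered in both libraries against 65.9% of the others. In the fit 1265 of the 1467 domains near ends and 413 of the 659 others were higher in siKDM5BC. Tiles near ends that meet no domain also had more siKDM5BC H3K4me3 than tiles farther away, 22.04% and 20.8% against 5.67% and 5.07%. These classes were not tested against each other.

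**Figure D5:**
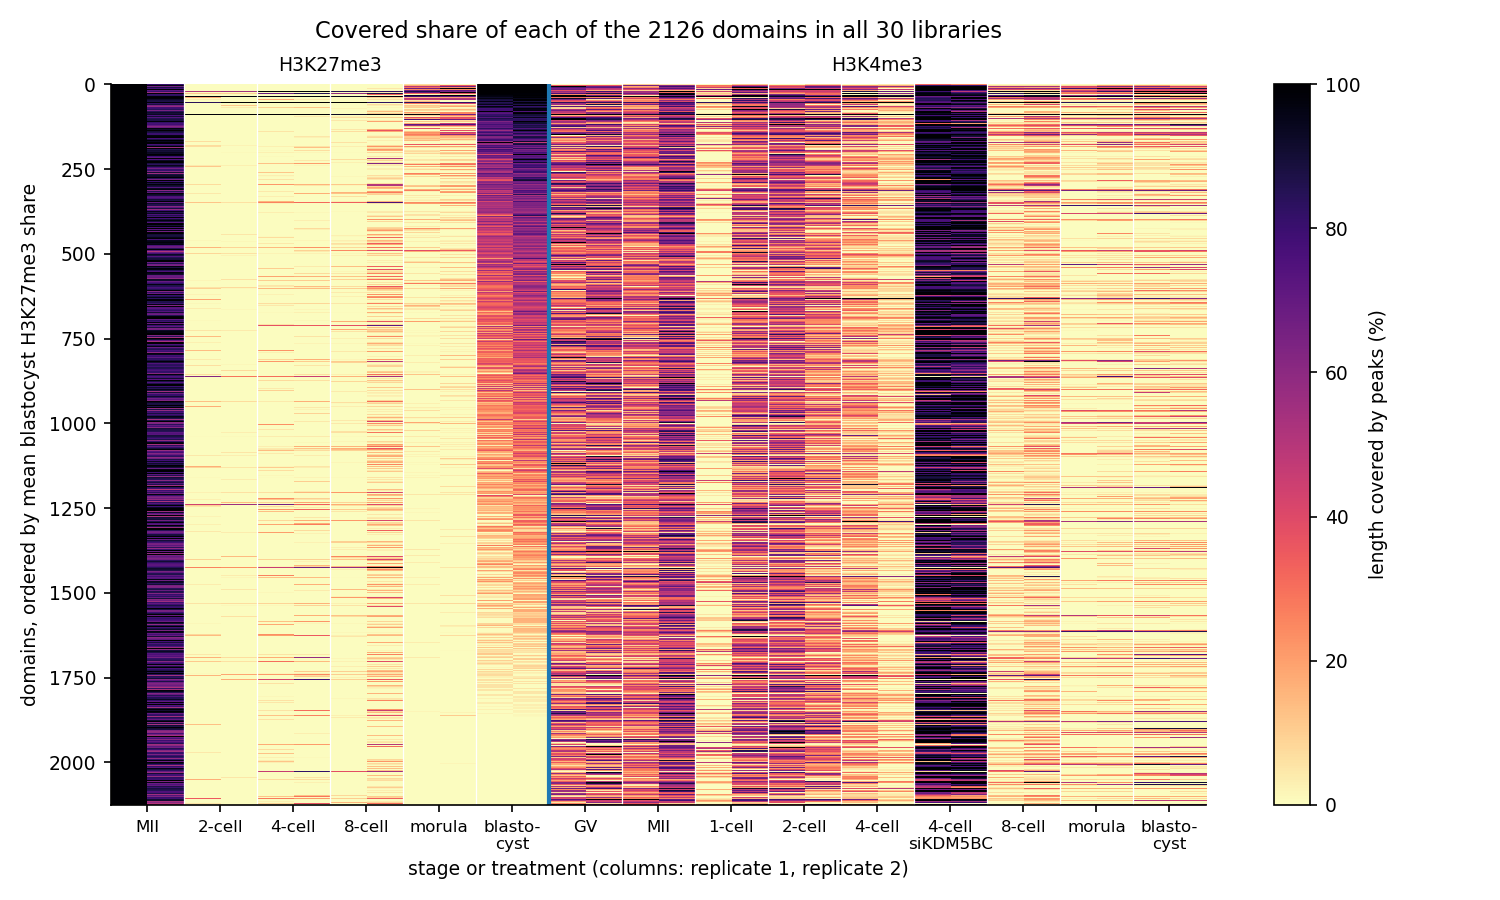
Covered share (0 to 100%, light to dark) of each of the 2126 domains (rows, ordered by mean blastocyst H3K27me3 share) in all 30 libraries (columns, replicates side by side). The siKDM5BC columns are dark for most domains from top to bottom, and the few dark rows across all columns are the domains covered at every stage.

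Several groups of developmental genes had an end inside a domain or within 1 kb of one. Domains met 450 of 18722 coding genes in this way, 2.404%. Among HOX genes, which pattern the body axis, it was 6 of 36 (HOXA3, HOXA5, HOXA6, HOXB7, HOXB8 and HOXC9). It was 14 of 94 other homeobox and PAX factors, 18 of 81 SOX, TBX, FOX, ZIC, GATA and bHLH factors and 10 of 58 WNT, FGF, BMP and hedgehog ligands. Trophectoderm regulators contributed 5 of 29, hypoblast regulators 2 of 20 (GATA6 and SOX7), imprinted genes 9 of 42 and pluripotency genes 1 of 27, the embryonic factor gene UTF1. None of 29 oocyte and maternal-effect, 22 cumulus and granulosa cell, 23 sperm, 36 Polycomb and H3K27 demethylase, 17 H3K4 methylation enzyme and 74 ribosomal protein genes lay at a domain. The lists are descriptions and were not tested.

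Blastocyst H3K27me3 over the domains at developmental genes was counted list by list. Both blastocyst libraries covered at least 50% of 10 of the 13 homeobox and PAX domains, 10 of the 17 SOX to bHLH domains and 6 of the 10 ligand domains, against 16.7% of all domains. That limit was met by 0 of the 3 HOX domains, 1 of the 5 trophectoderm domains, 1 of the 2 hypoblast domains, 3 of the 9 imprinted domains and 0 of the 1 pluripotency domain. With features admitted on the 8 earlier libraries alone, 10 of 11 fitted homeobox and PAX domains, 9 of 12 SOX to bHLH domains and 5 of 5 ligand domains rose against the morula, beside 531 of 898 domains in all, with median differences of 45.7, 46.3 and 55.3 points against 31.5. None of the 3 HOX domains had a covered base before the blastocyst, so no rise is counted for them.

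The p-values in this paragraph are from the limma fit with features admitted on the 8 earlier libraries alone. Among the widest factor domains, the one at the neural homeobox gene NKX6-2 (chromosome 14, 140899903 to 140920760) had blastocyst H3K27me3 over 43.0% and 63.5% and morula H3K27me3 over 2.53% and 12.5% (BH-adjusted p = 0.0059). The domain at IRX4, a cardiac Iroquois factor (chromosome 16, 78931253 to 78944147), went from 2.88% and 10.4% to 56.2% and 81.3% (BH-adjusted p = 0.00233), and the one at PAX7, a factor of muscle stem cells (chromosome 6, 77157427 to 77167384), from 45.5% and 53.2% to 89.2% and 100% (BH-adjusted p = 0.0044). At the forkhead genes FOXL1 and FOXC2, which share a domain (chromosome 6, 2528654 to 2551145), the shares were 0% and 5.16% in morulae, against 54.7% and 79.7% in blastocysts (BH-adjusted p = 0.00198). Not all wide factor domains had high shares. The DLX3 domain, wider than the PAX7 domain, had 4.26% and 10.5% in blastocysts. That at the bHLH gene BHLHE23 (chromosome 17, 62204017 to 62218825), also wider, had 23.7% and 43.1%. In blastocysts the ligand gene FGF3 (chromosome 2, 3488076 to 3501196) had 72.8% and 69.6%, and WNT7B (chromosome 5, 3563592 to 3574302) 38.4% and 61.9%.

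Over these domains H3K4me3 shares were high in untreated 4-cell embryos already. The median 4-cell share, from the means of 2 libraries, was 55.0% over the homeobox and PAX domains, 49.9% over the SOX to bHLH domains and 58.7% over the ligand domains, against 12.03% over all domains. In siKDM5BC 4 of 13, 6 of 17 and 2 of 10 were called higher, beside 1678 of 2126 domains in all, and 13, 16 and 9 of them were at least 50% covered in both siKDM5BC libraries, a limit met by 82.3% of all domains and 4.1% of tiles. These domains meet gene ends by construction, and the 436 domains that do had 4-cell shares of 33.0% and 18.4% against 18.1% and 7.19% outside coding genes.

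The 5 domains at regulators of the trophectoderm, the outer epithelium of the blastocyst, had high H3K4me3 shares at that stage. H3K4me3 covered 100% and 90.3% of the domain at GATA2 (chromosome 13, 71981614 to 71992102), 59.9% and 58.2% at DLX3 (chromosome 12, 26175833 to 26186178), 49.3% and 67.6% at GATA3 (chromosome 10, 63367368 to 63376647), 84.0% and 100% at TFAP2A (chromosome 7, 7242318 to 7248504) and 100% in both libraries at TFAP2C (chromosome 17, 57160367 to 57165582). Over all domains the shares were 9.91% and 10.1%, and over the 436 domains meeting gene ends 17.8% and 18.3%. The median share was 92.0% over these 5, 75.8% over the hypoblast, 58.3% over the HOX and 53.5% over the homeobox and PAX domains. It was 37.7% over the ligand, 37.0% over the SOX to bHLH, 16.8% over the pluripotency and 2.00% over the imprinted domains. Some domains are in more than 1 list. The TFAP2C domain was also at 100% in both GV oocyte libraries. Blastocyst H3K27me3 covered 29.7% and 47.8% at GATA2, 4.26% and 10.5% at DLX3, 14.3% and 7.66% at GATA3, 67.1% and 85.0% at TFAP2A and 13.8% and 0% at TFAP2C. Against MII oocytes only GATA2 passed, from 49.3% and 74.8% (BH-adjusted p = 0.0378).

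All 9 imprinted domains were higher in siKDM5BC. The imprinted domain at RTL1 (chromosome 7, 121717010 to 121732714), a retrotransposon-derived placental gene, went from 12.8% and 19.8% to 89.98% and 82.8% (BH-adjusted p = 0.00482), and that at the transporter gene SLC22A18 (chromosome 2, 2033364 to 2048752) from 20.6% and 3.66% to 100% and 93.5% (BH-adjusted p = 0.00721). At ASCL2, a placental bHLH factor (chromosome 2, 1554834 to 1569602), the shares were 44.7% and 20.8% at the 4-cell stage, against 96.5% and 89.5% in siKDM5BC (BH-adjusted p = 0.00865), and at IGF2 itself (chromosome 2, 1492855 to 1506468) 12.3% and 4.54%, against 88.3% and 86.6% (BH-adjusted p = 0.000287). The count for all domains was 1678 of 2126. Blastocyst H3K27me3 covered 76.9% and 98.7% of the ASCL2 domain and 1.81% and 0% of the IGF2 domain. At UTF1 (chromosome 14, 141175782 to 141190371) the siKDM5BC shares were 93.5% and 97.0% against 14.9% and 5.51% (BH-adjusted p = 0.000673), with 1.93% and 1.46% of blastocyst H3K27me3.

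Part of the sequence lay under both marks. In MII replicate 1 both marks covered 7.12 Mb of domain sequence, and in replicate 2 9.72 Mb. Of the domain sequence under H3K27me3, 35.6% and 58.8% was also under H3K4me3. In blastocysts it was 12.9% and 11.9%. In blastocysts 188 domains were at least 50% covered by H3K27me3 in both libraries with under 10% H3K4me3 in both, 23 the reverse, 32 had at least 50% of both marks and 328 had under 10% of both. For each mark alone, 354 domains met the upper limit for H3K27me3 and 90 for H3K4me3, and 474 and 1439 the lower limit. Joint counts follow in part from these and were not made over tiles, so they are not read as a result about the domains. Libraries of the 2 marks come from different samples, so shared bases do not show both marks on the same nucleosome. Of the 1750 domains at least 50% covered in both siKDM5BC libraries, 82.3% of all against 4.1% of tiles, 1149 had under 10% H3K4me3 in both blastocyst libraries. That blastocyst limit was met by 67.7% of all domains and 84.5% of tiles, and the same limit in morulae by 1612 domains (75.8%) and 81.7% of tiles.

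The domains were set beside 3 other sets of regions. Narrower MII H3K27me3 peaks kept by the same overlap rule (13089 peaks) had siKDM5BC H3K4me3 over 60.8% and 59.2% of their length and blastocyst H3K27me3 over 18.5% and 24.0%, below the domains on both. Broad H3K27me3 domains new in blastocysts (899) had 12.5% and 11.7% of siKDM5BC H3K4me3 and 3.97% and 6.65% of MII H3K4me3, and 10.1% of them lay within 5 Mb of a chromosome end. Broad H3K4me3 domains of GV oocytes (904) had 90.3% and 88.8% in siKDM5BC but also 43.2% and 43.8% in blastocysts, where the MII H3K27me3 domains had 9.91% and 10.1%. Of these GV domains 26.2% lay mostly inside the MII H3K27me3 domains, and they covered at least 50% of 7.15% of those. These sets were compared as descriptions, with no test.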

How the data were processed

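H3K4me3 and H3K27me3 ULI-NChIP libraries of pig oocytes and embryos were analysed from their peak lists. Per the submitters' processing notes, reads were aligned to susScr11 with Bowtie2 2.4.1 and peaks were called with MACS2; what threshold was set, and whether an input served as control, is not given in the sources used here. Then the authors deposited 1 list of broad peaks per library, with the start and end of each peak, a score, the fold enrichment over background, and the −log10 p and −log10 q of the caller. No list was pooled over replicates.

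The covered share of each domain, and of every 5-kb tile of chromosomes 1 to 18 meeting no domain, was computed per library. Features with a covered base in at least 2 libraries were fitted with limma 3.58.1 (R 4.3.3; empirical Bayes with trend, linear scale), 18 H3K4me3 libraries in 1 fit and the 10 H3K27me3 libraries after MII in another, and p-values were adjusted by Benjamini-Hochberg (BH) over all features, two-sided, at 0.05. Depth is unknown; the caller's background was solved from fold and p pairs. Groups and replicate numbers came from the sample titles. The replicate numbers were not used to pair the samples in these fits, and whether same-numbered samples belong together is not known.

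Members and gene lists were chosen with earlier results of these data known. Runs of domains, width and position classes, shared bases of both marks, single peaks spanning a domain, counts of groups that do not overlap and chromosome X were described after the data were seen. Named domains are the widest, those with the largest differences past the threshold in each comparison, those with most 2-cell H3K27me3, the widest covered or empty in blastocysts, and the widest at each gene list; GATA6, SOX7 and the HOX genes are named as small counts. Some domains that this rule names are not reported here. Coding genes came from RefSeq (Sscrofa11.1, the build also called susScr11), and olfactory receptor genes matched no entry by name. Where a domain is given by its distance to a gene, that is the nearest named gene, and entries with only a LOC number may lie closer. Alternatives covered the width, overlap, strength and joining of peaks, the filter, the scale, the libraries in the fit, a replicate block, single libraries left out and, added after the data were seen, a filter that leaves out the later group of each H3K27me3 comparison. Where an alternative changes the number of domains, calls are compared as shares in place of counts, which was decided after the values were seen.

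The fit was tested on simulated data. With few changed features it made excess calls in sparsely covered tiles and recovered few changed domains. The simulation was then revised to hold as many changed features as a real comparison, and its share of wrong calls was still above the nominal level. Comparisons with few calls, above all H3K27me3 at the 4-cell against the 2-cell stage, are the least secure.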

Additional observations from a re-analysis of the deposited data

Results flagged for a closer look

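The same rule applied to chromosome X, which the comparisons leave out, gave 70 domains with a summed length of 649 kb. They are listed here because they lie in data that the comparisons did not use. H3K4me3 covered 41.6% and 63.8% of their length in MII oocytes, 18.4% and 9.996% in 4-cell embryos, 79.4% and 82.3% in siKDM5BC and 11.9% and 13.3% in blastocysts. H3K27me3 covered 0.390% and 0.408% in 2-cell embryos and 38.2% and 49.9% in blastocysts. No difference from the domains of chromosomes 1 to 18 was tested.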

How the results depend on the processing

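Depth is unknown and each comparison rests on 2 libraries a group, which limits every covered share and call. Counts that moved by over 1.5 times, and mean shares that moved by over 1 SD, are given here; the cause was not tested. Where a setting changed the number of domains, calls are given as a share of the domains, a choice made after the values were seen: of 48 such counts 39 moved by over 1.5 times, and of the shares 9. As reported, the shares were 78.9% higher and 0.188% lower for siKDM5BC, 0.0941% higher and 5.08% lower for H3K4me3 from 2-cell to 4-cell, 0.753% higher and 3.76% lower for H3K4me3 from MII to 2-cell, 0.894% higher and 41.0% lower for H3K4me3 from MII to blastocyst, 0.611% higher and 0% lower for H3K27me3 from 2-cell to 4-cell and 60.1% higher and 0% lower for H3K27me3 from morula to blastocyst. A width minimum of 10 kb left 592 domains, with 92.4% higher and 0.169% lower for siKDM5BC, 0.338% higher and 3.21% lower for H3K4me3 from 2-cell to 4-cell, 0.507% higher and 3.38% lower for H3K4me3 from MII to 2-cell, 0.676% higher and 54.1% lower for H3K4me3 from MII to blastocyst, 0.338% higher and 0% lower for H3K27me3 from 2-cell to 4-cell and 72.6% higher and 0% lower for H3K27me3 from morula to blastocyst. The mean share became 87.1% for siKDM5BC H3K4me3 and 9.80% for blastocyst H3K4me3, 106 domains were at least 50% covered in both blastocyst H3K27me3 libraries and 578 were under 10% covered in both 2-cell ones. A minimum of 3 kb gave 4065 domains, with 65.4% higher and 0.172% lower for siKDM5BC, 0.123% higher and 4.80% lower for H3K4me3 from 2-cell to 4-cell, 1.11% higher and 3.81% lower for H3K4me3 from MII to 2-cell, 1.43% higher and 33.3% lower for H3K4me3 from MII to blastocyst, 0.787% higher and 0.0492% lower for H3K27me3 from 2-cell to 4-cell and 49.2% higher and 0% lower for H3K27me3 from morula to blastocyst. Mean shares there were 77.6% for siKDM5BC H3K4me3, 10.7% for blastocyst H3K4me3 and 2.89% for 4-cell H3K27me3, 635 domains were at least 50% covered in both blastocyst H3K27me3 libraries and 3891 were under 10% covered in both 2-cell ones. Coverage of 90% by MII replicate 2 left 602 domains, with 84.9% higher and 0.498% lower for siKDM5BC, 0.166% higher and 3.65% lower for H3K4me3 from 2-cell to 4-cell, 0.498% higher and 3.99% lower for H3K4me3 from MII to 2-cell, 0.831% higher and 46.5% lower for H3K4me3 from MII to blastocyst, 0.664% higher and 0% lower for H3K27me3 from 2-cell to 4-cell and 68.3% higher and 0% lower for H3K27me3 from morula to blastocyst. Mean shares there were 89.9% for siKDM5BC H3K4me3, 11.2% for blastocyst H3K4me3, 2.10% for 2-cell H3K27me3, 3.31% for 4-cell H3K27me3, 4.69% for morula H3K27me3 and 37.3% for blastocyst H3K27me3, 131 domains were at least 50% covered in both blastocyst H3K27me3 libraries and 584 were under 10% covered in both 2-cell ones. Cutting the domains gave 4128 tiles of 5 kb, with 73.2% higher and 0.145% lower for siKDM5BC, 0.121% higher and 4.99% lower for H3K4me3 from 2-cell to 4-cell, 1.11% higher and 4.05% lower for H3K4me3 from MII to 2-cell, 1.31% higher and 33.2% lower for H3K4me3 from MII to blastocyst, 0.509% higher and 0% lower for H3K27me3 from 2-cell to 4-cell and 52.3% higher and 0.0242% lower for H3K27me3 from morula to blastocyst. With −log10 q of 2 or more, domains called were 2 lower for siKDM5BC, 11 higher for H3K4me3 from 2-cell to 4-cell, 11 lower for H3K4me3 from 2-cell to 4-cell, 0 lower for H3K4me3 from MII to 2-cell, 132 higher for H3K4me3 from MII to blastocyst, 11 lower for H3K4me3 from MII to blastocyst, 6 higher for H3K27me3 from 2-cell to 4-cell, 343 higher for H3K27me3 from morula to blastocyst and 3 lower for H3K27me3 from morula to blastocyst. Covered shares were then 9.32% for MII H3K4me3, 8.65% for 2-cell H3K4me3, 78.4% for siKDM5BC H3K4me3, 9.24% for blastocyst H3K4me3, 0.681% for 2-cell H3K27me3, 1.37% for 4-cell H3K27me3, 2.04% for morula H3K27me3 and 12.6% for blastocyst H3K27me3, and 135 domains were at least 50% covered in both blastocyst H3K27me3 libraries. With fold of 3.5 or more, domains called were 1 lower for siKDM5BC, 5 higher for H3K4me3 from 2-cell to 4-cell, 10 lower for H3K4me3 from 2-cell to 4-cell, 28 lower for H3K4me3 from MII to 2-cell, 68 higher for H3K4me3 from MII to blastocyst, 147 lower for H3K4me3 from MII to blastocyst, 31 higher for H3K27me3 from 2-cell to 4-cell, 2 lower for H3K27me3 from 2-cell to 4-cell, 337 higher for H3K27me3 from morula to blastocyst and 3 lower for H3K27me3 from morula to blastocyst. At that fold they were 17.8% for MII H3K4me3, 10.3% for 2-cell H3K4me3, 72.0% for siKDM5BC H3K4me3, 8.12% for blastocyst H3K4me3, 2.41% for 4-cell H3K27me3, 2.82% for morula H3K27me3 and 13.7% for blastocyst H3K27me3, and 146 domains were at least 50% covered in both blastocyst H3K27me3 libraries. With peaks under 3 kb apart joined, domains called were 890 higher for siKDM5BC, 270 lower for H3K4me3 from 2-cell to 4-cell, 4 higher for H3K4me3 from MII to blastocyst and 1 lower for H3K27me3 from 2-cell to 4-cell. With joined peaks the shares were 74.2% for MII H3K4me3, 62.9% for 2-cell H3K4me3, 26.8% for 4-cell H3K4me3, 91.0% for siKDM5BC H3K4me3, 12.5% for blastocyst H3K4me3, 3.29% for 4-cell H3K27me3, 5.02% for morula H3K27me3 and 46.6% for blastocyst H3K27me3, and 703 domains were at least 50% covered in both blastocyst H3K27me3 libraries. On the arcsine square-root scale, domains called were 6 higher for H3K4me3 from 2-cell to 4-cell, 45 lower for H3K4me3 from MII to 2-cell, 20 higher for H3K27me3 from 2-cell to 4-cell and 2 lower for H3K27me3 from 2-cell to 4-cell. Without the filter on features, domains called were 3 higher for H3K27me3 from 2-cell to 4-cell. With only the 2 groups compared in the fit, domains called were 0 higher for H3K4me3 from 2-cell to 4-cell, 0 lower for H3K4me3 from 2-cell to 4-cell, 0 higher for H3K4me3 from MII to 2-cell, 0 lower for H3K4me3 from MII to 2-cell, 46 higher for H3K27me3 from 2-cell to 4-cell and 3 lower for H3K27me3 from 2-cell to 4-cell. Without the 6 domains covered in all 30 libraries, domains called were 2 lower for siKDM5BC. The shares of the other domains were 9.57% for blastocyst H3K4me3, 0.701% for 2-cell H3K27me3 and 2.18% for 4-cell H3K27me3. With 25% as the limit, 855 domains were covered in both blastocyst H3K27me3 libraries.

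Without 1-cell replicate 1, an alternative chosen after seeing the data like that on the 6 domains, calls numbered 1807 higher and 4 lower for siKDM5BC, 3 higher and 320 lower for H3K4me3 from 2-cell to 4-cell, 44 higher and 140 lower for H3K4me3 from MII to 2-cell and 23 higher and 1119 lower for H3K4me3 from MII to blastocyst. With H3K27me3 features admitted only on libraries outside the later group, also chosen after seeing the data, 0 domains were higher from 2-cell to 4-cell and 531 from morula to blastocyst, where fewer features were tested. Leaving out single libraries of the groups compared, calls numbered 899 to 1354 higher and 3 to 5 lower for siKDM5BC, 0 to 4 higher and 15 to 170 lower for H3K4me3 from 2-cell to 4-cell, 5 to 20 higher and 26 to 143 lower for H3K4me3 from MII to 2-cell, 9 to 25 higher and 292 to 969 lower for H3K4me3 from MII to blastocyst, 0 to 16 higher and 0 to 0 lower for H3K27me3 from 2-cell to 4-cell and 846 to 1007 higher and 0 to 0 lower for H3K27me3 from morula to blastocyst. A group then holds 1 library, which is assumed to vary like the other groups. Mean shares without a library are the other library's own share, given in the report. With the replicate number as a block, calls numbered 1637 higher and 4 lower for siKDM5BC, 2 higher and 94 lower for H3K4me3 from 2-cell to 4-cell, 13 higher and 74 lower for H3K4me3 from MII to 2-cell, 17 higher and 834 lower for H3K4me3 from MII to blastocyst, 9 higher and 0 lower for H3K27me3 from 2-cell to 4-cell and 1267 higher and 0 lower for H3K27me3 from morula to blastocyst, and no count moved by over 1.5 times. Deviations of same-numbered libraries correlated at -0.152 to 0.0704 in the H3K4me3 groups and -0.107 to 0.127 in the H3K27me3 groups. A shift common to all domains would not show in these correlations, so they cannot decide whether same-numbered samples share a collection.

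At most the 3 largest differences in each direction of each comparison, 29 in all, were followed under these alternatives. Of their values 313 kept their direction and side of the threshold. Another 101 missed the threshold with the same direction or a difference of 0, and 4 changed sign. The domain nearest EXOC2, higher by 53.1 points at the 2-cell stage than in MII oocytes, was at -17.9 with −log10 q of 2 or more and -3.33 with fold of 3.5 or more. The RER1 domain, at -63.9 points in the same comparison, was at 6.496 and 2.84.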
